A study of Rattus norvegicus with 35 samples.

Results

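The cathepsin genes Ctsl, Ctsb, Ctsd, Ctsc, Ctsz, Ctsh, Ctsk and Ctss were followed in single rat converted hypoblast stem cells and in a bulk library of the same kind of cells. Members were taken by name, as the transcript records that a RefSeq gene table pairs with these symbols. All 8 genes were found, with 1 record each, among 17198 genes or unmatched records. The study converted rat embryonic stem cells in medium that held the growth factors PDGF and EGF beside LIF and serum at 2%, passaged them after 7 days and collected them on day 12. The libraries comprised 34 single cells, captured in microfluidic chambers, and 1 bulk population control, and both groups shared this derivation, medium and day. No genotype, animal, culture or batch is named in the labels, and the number of cells pooled in the bulk library is not stated. Each group was therefore counted as 1 sample, no difference could be tested, and SDs describe the spread between cells.

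Cathepsins are proteases of the lysosome. Most members of the family, including those encoded by Ctsl, Ctsb, Ctsc, Ctsz, Ctsh, Ctsk and Ctss, cut proteins with a cysteine in the active site, while the enzyme encoded by Ctsd uses aspartate. They are made as inactive precursors, sorted to the lysosome largely through mannose 6-phosphate receptors and activated there, and cystatins inhibit the cysteine types. In the rodent yolk sac, which descends in part from the hypoblast, lysosomal proteases degrade maternal proteins that the endoderm takes up, and some procathepsin L is secreted.

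Single cells held between 6288 and 503044 reads in genes (median 266046), against 47121 in the bulk library. Levels are given as CPM, the reads of a gene per 1000000 reads of its library, so 1 read was worth between 1.99 and 159 CPM in a cell and 21.2 CPM in the bulk library. CPM values are not divided by transcript length, and the order of different genes by CPM is therefore not read here as an order of transcript numbers. Several cells stood apart in depth or in content. C94 and C88 held 6288 and 12750 reads, the cells C03, C09, C31, C74 and C95 held between 1360 and 1882 genes with a read, and C14, C17, C30 and C46 were the 4 cells with Col1a2, a fibrillar collagen gene. Hypoblast markers were present, with 6 of 7 detected at 5 CPM or more in at least 17 cells, and so were 6 of the 7 measured parietal endoderm markers. The share over all genes with a read was 27.1%. Among 9 visceral endoderm markers, 2 reached 17 cells, Apoe with 26 cells and Cubn, an endocytic receptor gene, with 20. Ttr, Apoa1 and Apob had no read in any cell and Afp had 1 read. Lrp2, Amn and Hnf4a were detected in 15, 9 and 1 cells.

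Ctsl was read in every library, and its level differed more than 1000-fold between cells. It had 110825 reads over the cells and 321 reads in the bulk library. The lowest cell held 13.9 CPM (C74), the median cell 5581 CPM and the highest cell 47242 CPM (C33), against 6812 CPM in the bulk library (exact Poisson 95% interval 6087 to 7600). The mean over cells was 10887 ± 13002 CPM (SD, n = 34), and 16459 CPM in the 20 cells with at least 100000 reads and 3000 genes. In C33, Ctsl took 4.72% of all reads of the cell, and in the bulk library it took 0.681%. Of the cells, 14 held more than 10000 CPM, 14 held between 1000 and 10000 CPM, and 6 held less than 1000 CPM. The bulk value lay inside the range of the cells, and 16 cells were above it. Ctsl was 1 of 31 genes detected in all cells, or 0.287% of the 10784 genes with a read in any library.

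The lowest Ctsl values were not those of the shallowest cells. C74, C95 and C54 held 6, 10 and 16 Ctsl reads among 431709, 450250 and 503044 reads, and these are the deepest cells of the set by reads. They were not the richest in genes, with 1556, 1642 and 3307 genes with a read, where the highest cell held 5514. Their Ctsl levels were 13.9, 22.2 and 31.8 CPM. Next came C46 and C17 at 357 and 369 CPM, both of which held Col1a2, followed by C94 at 954 CPM. The other cells with Col1a2, C14 and C30, held 1037 and 5974 CPM. C74 also held 1170 CPM of Pou5f1, which encodes the main POU factor of pluripotent cells, and C95 and C54 held none. The parietal endoderm markers summed to 3905 CPM in C74, 808 CPM in C95 and 173 CPM in C54, against a median of 13597 CPM over cells and 18081 CPM in the bulk library. The hypoblast markers summed to 301, 3574 and 2149 CPM in the same 3 cells, the first below and the others above the median of 1371 CPM, against 1358 CPM in the bulk library. In C95 that sum rested on Dab2 at 2061 CPM and Gata4 at 1512 CPM, and Gata6 was at 0 CPM. The part of these marker differences in the Ctsl values was not tested.

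**Figure D1:**
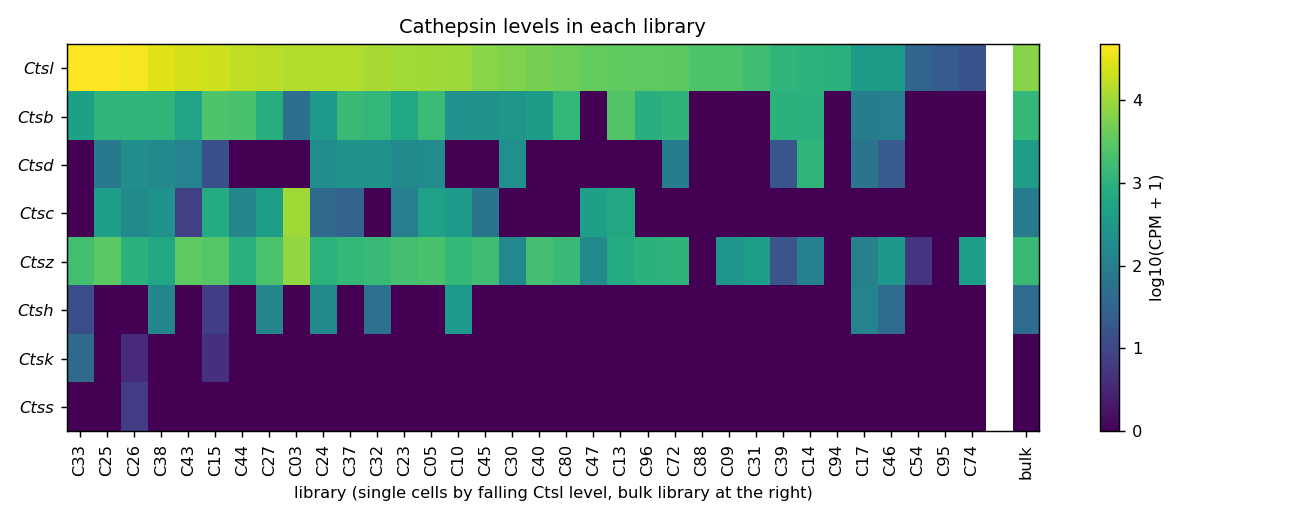
Level of each cathepsin gene (rows) as log10(CPM + 1) in each single cell, ordered by falling Ctsl level, and in the bulk library at the right. Ctsl runs from 47242 CPM in C33 to 13.9 CPM in C74, while Ctsk and Ctss are at 0 in most cells and in the bulk library.

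Ctsz and Ctsb, which encode cathepsin Z, a carboxypeptidase, and cathepsin B, were the other members found in most cells. Ctsz was detected in 30 of 34 cells (88.2%, exact Clopper-Pearson 95% interval 72.5% to 96.7%) and Ctsb in 26 (76.5%, 58.8% to 89.3%). With Ctsl, 3 of the 8 members were detected in at least 17 cells, where the share over all genes with a read was 27.1%. Ctsz ranged from 0 CPM (C88, C94 and C95) through a median of 994 CPM to 8103 CPM in C03, with a mean of 1258 ± 1523 CPM, against 1486 CPM in the bulk library (70 reads, interval 1158 to 1877). Apart from C03 the highest cell was C43, at 3311 CPM. Ctsb ranged from 0 CPM through a median of 489 CPM to 2525 CPM in C13, with a mean of 712 ± 726 CPM, against 1273 CPM in the bulk library (60 reads, interval 972 to 1639). The cells spanned the bulk value for both genes, with 11 cells above it for Ctsz and 5 for Ctsb.

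Ctsb had no read in 8 cells, among them the 3 deepest by reads, of which C74 and C95 held few genes with a read (1556 and 1642). No Ctsb read among the 503044 reads of C54 allows up to 5.96 CPM, and the same limit was 6.66 CPM in C95 and 6.95 CPM in C74, for independent reads and counting error only. The Ctsb level lay at 50.6 CPM (C03) or more in every cell in which it was read. C74 held 415 CPM of Ctsz beside 13.9 CPM of Ctsl, and C54 held 3.98 CPM of Ctsz, from 2 reads.

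Ctsd, the gene of the aspartic protease, and Ctsc, the gene of dipeptidyl peptidase I, an enzyme that activates granule serine proteases in immune cells, were each detected in 16 cells (47.1%, interval 29.8% to 64.9%). Ctsd had a median of 0 CPM and a mean of 93.0 ± 202 CPM over cells, against 403 CPM in the bulk library (19 reads, interval 243 to 630). Its highest level, 1121 CPM, came from 40 reads in C14, a cell with Col1a2, and the next was 255 CPM in C37. That 1 cell held 35.4% of the summed Ctsd CPM, and 1 cell alone was above the bulk value. Ctsc had a median of 0 CPM and a mean of 421 ± 1708 CPM over cells, against 84.9 CPM in the bulk library (4 reads, interval 23.1 to 217). C03 held 10013 CPM, or 70.0% of the summed Ctsc CPM, and the next cell, C15, held 755 CPM. Without C03 the mean of Ctsc was 130 CPM.

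Ctsh, Ctsk and Ctss were rare. Ctsh, which encodes an aminopeptidase, was detected in 9 cells (26.5%, interval 12.9% to 44.4%), from 6.46 CPM in C15 to 325 CPM in C10, with a mean of 29.1 ± 69.2 CPM, against 42.4 CPM from 2 reads in the bulk library. Ctsk, the collagen-degrading cathepsin of osteoclasts, had 15 reads over all cells, of which 13 were in C33 at 39.5 CPM, and no read in the bulk library. Ctss, the cathepsin of antigen-presenting cells, had 2 reads, both in C26 at 5.53 CPM, and no read in the bulk library. No bulk read allows up to 63.7 CPM, above the mean of the cells for both genes, so no fold is given. Markers of the cell types in which Ctss and Ctsk are known to be abundant were read in part. Of 9 macrophage markers, Aif1, Adgre1, Lyz2 and Tyrobp had no read in any cell, Ptprc had 1 read, Csf1r was read in C15 alone (43 reads) and Cd14 was detected in 6 cells, up to 246 CPM in C43. Cd68 and Fcer1g were detected in 1 cell each, at 22.7 CPM in C05 and 34.0 CPM in C13. All 9 had no read in the bulk library. The macrophage markers summed to between 0 and 246 CPM in a cell, with a median of 0, and C33 and C15, which held 14 of the 15 Ctsk reads, were at 188 and 139 CPM. That sum was Cd14 alone in C33 and Csf1r alone in C15. C26, which held both Ctss reads and the other Ctsk read, was at 0 CPM. C43, with the highest sum, had no Ctsk or Ctss read. Of 3 measured osteoclast markers, Calcr had no read, Oscar had 3, and Acp5, an acid phosphatase gene, was detected in 7 cells, with its highest level, 170 CPM, in C33, and was at 84.9 CPM (4 reads) in the bulk library. In C26 the osteoclast markers summed to 0 CPM. The part of other cell types in the Ctsk and Ctss reads was not tested.

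Between 1 and 6 of the 8 members were detected in a cell, with a median of 4, and 6 were detected in the bulk library. The 4 cells with a single member, always Ctsl, were C54, C88, C94 and C95, and the 4 cells with 6 members were C15, C24, C26 and C38. Thinning to equal depth lowered the number of cells with a read for Ctsz, Ctsd, Ctsh and Ctsk. When 30 cells were thinned to 50000 reads, leaving out 4 shallower cells, Ctsl had a read in 30, Ctsz in 28, Ctsb in 24, Ctsc in 16, Ctsd in 13, Ctsh in 7, and Ctsk and Ctss in 1 each. In the same cells before thinning the numbers were 30 for Ctsl, 29 for Ctsz, 24 for Ctsb, 16 for Ctsc, 14 for Ctsd, 9 for Ctsh, 3 for Ctsk and 1 for Ctss.

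**Figure D2:**
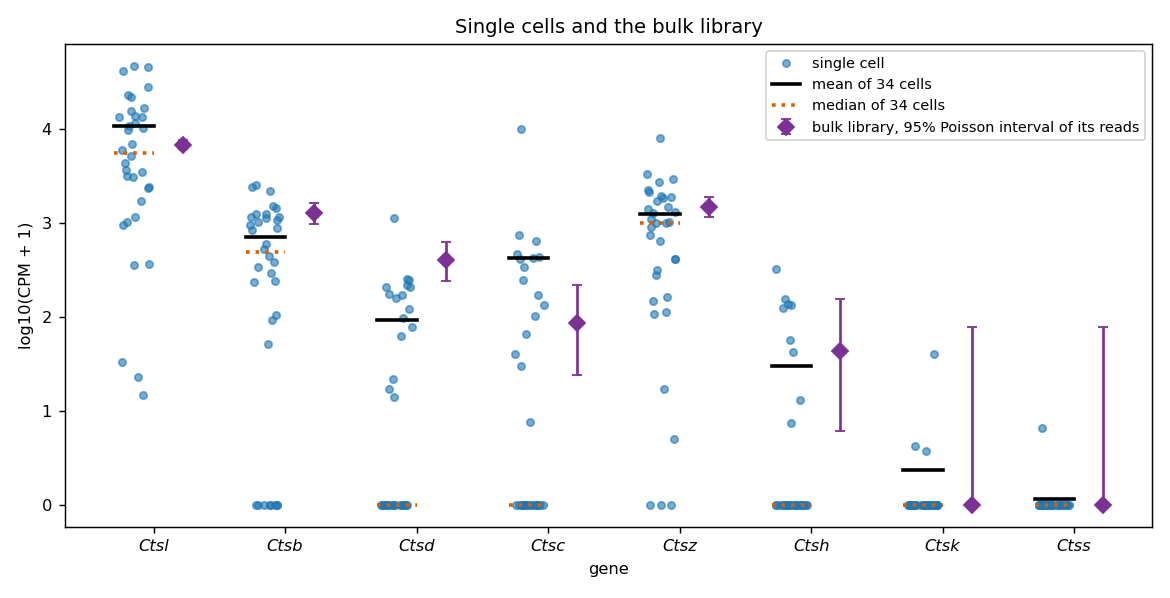
Level of each gene as log10(CPM + 1) in 34 single cells (points, with their mean as a solid line and their median as a dotted line) and, to their right, in the bulk library (diamond, with the exact Poisson 95% interval of its reads). The bulk value of Ctsl, 6812 CPM, lies between the median of 5581 CPM and the mean of 10887 CPM of the cells.

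The bases upstream of the transcription start are shown for the pair detected in the most cells, Ctsl and Ctsz, and for Ctsd, the one window with a CACGTG element. Each runs 5′ to 3′ and ends at the base before the annotated start. Capitals mark matches on either strand to GGGCGG (the GC box bound by Sp1 factors), CCAAT (the CCAAT box), CACGTG (the E-box core bound by TFEB and related factors) and TATAAA (the TATA box).
Ctsl (RefSeq, GRCr8, chr17:769854-770103, plus strand): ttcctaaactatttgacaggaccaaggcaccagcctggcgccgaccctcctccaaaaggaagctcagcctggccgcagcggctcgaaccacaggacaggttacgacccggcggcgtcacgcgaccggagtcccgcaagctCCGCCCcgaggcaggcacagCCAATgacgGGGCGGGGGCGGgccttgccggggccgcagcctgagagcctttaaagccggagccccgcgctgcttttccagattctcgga
Ctsz (RefSeq, GRCr8, chr3:183653848-183654097, minus strand): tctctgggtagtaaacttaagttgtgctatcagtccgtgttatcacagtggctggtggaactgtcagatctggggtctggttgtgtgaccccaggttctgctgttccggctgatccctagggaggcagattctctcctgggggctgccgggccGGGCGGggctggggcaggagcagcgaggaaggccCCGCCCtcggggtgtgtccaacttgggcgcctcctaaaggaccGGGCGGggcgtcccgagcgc
Ctsd (RefSeq, GRCr8, chr1:206968822-206969071, minus strand): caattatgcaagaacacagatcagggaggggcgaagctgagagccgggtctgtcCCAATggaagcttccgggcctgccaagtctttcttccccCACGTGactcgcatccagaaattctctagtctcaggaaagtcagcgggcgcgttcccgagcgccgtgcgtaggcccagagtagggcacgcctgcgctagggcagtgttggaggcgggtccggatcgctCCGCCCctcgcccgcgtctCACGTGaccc

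The coordinates are those of RefSeq on GRCr8 and not of the build used for the reads. Windows were matched for Ctsl, Ctsd, Ctsc, Ctsz, Ctsh, Ctsk and Ctss. GGGCGG occurred 3 times each in the windows of Ctsl and Ctsz and 1 time each in those of Ctsd and Ctsc, and 32.4% of 27457 windows of the same length held it. The matches of Ctsl began 110, 81 and 75 bases before the start, with a CCAAT match at 90. CACGTG occurred in the Ctsd window alone among the 7, at 157 and 10 bases before the start, and 5.79% of all windows held it. TATAAA was found in the Ctss window, on the opposite strand, and in 13.1% of all windows. CCAAT was found for Ctsl, Ctsd and Ctsk and in 34.3% of all windows. Bases G and C made up 66.8% of the Ctsl window, 64.0% of the Ctsz window, 63.2% of the Ctsd window and 60.8% of the Ctsc window, against 50.4% for Ctsh, 49.6% for Ctsk, 46.4% for Ctss and a median of 52.0% over all windows. A match of letters is not a binding site.

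The single cells were set against the bulk population control to ask how the level averaged over cells compared with that of the population. Ctsl had 1.60-fold the bulk level in the mean of the cells (interval 1.43 to 1.79, from the bulk reads alone), but the median cell had 0.819-fold. Ctsb had 0.559-fold (0.434 to 0.732) and Ctsz 0.847-fold (0.670 to 1.09). Ctsd had 0.231-fold (0.148 to 0.383), a log2 ratio of −2.10. Ctsc had 4.95-fold (1.93 to 18.2), which became 1.53-fold without C03. Ctsh had 0.686-fold (0.190 to 5.67), an interval that spans both directions. In bulk samples fewer cells with a transcript and less of it per cell cannot be told apart.

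Among genes with an average of both levels of at least 10 CPM, 6 members could be compared. Ctsc was the 1 member at least 2-fold higher in the cells, where the share over 6452 genes was 34.8%, and Ctsd was the 1 member at least 2-fold higher in the bulk library, where the share was 30.6%. With size factors in place of library totals these shares over all genes were 40.2% and 15.6%. With 6 members compared, nothing is read from these counts. Their median log2 ratio was −0.38, against −0.01 over all compared genes. The value of Ctsl depended on how the cells were summarised. Its log2 ratio was 0.68 with the mean over all cells, −0.29 with the median cell and 1.27 for the mean of the 20 cells with at least 100000 reads and 3000 genes. The median over the genes compared in each setting was −0.01, −4.29 and 0.18. Col1a1 and Col1a2, detected in 4 cells each, were at 58.8 and 135 CPM in the mean of the cells, against 828 and 849 CPM in the bulk library, so both kinds of library also differed in fibroblast list genes. Of 3 trophoblast list genes compared, 2 were at least 2-fold higher in the bulk library and 0 in the cells, beside the shares of 30.6% and 34.8% over all genes. Plac1 was at 59.3 CPM in the mean of the cells, against 552 CPM in the bulk library. Prl3d1 had no read in any cell, against 255 CPM (12 reads) in the bulk library. The part of these differences in the cathepsin ratios was not tested. Leaving out the 4 cells with Col1a2 gave a Ctsd log2 ratio of −2.78 and a mean Ctsl of 12081 CPM.

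Ratios of reads within a library do not depend on its total, and comparing the same ratio between libraries needs no transcript length. Ctsl had a median of 11.3 reads for each Ctsb read over the 26 cells with both, from 1.09 in C14 to 273 in C03, against 5.35 in the bulk library (exact binomial interval 4.05 to 7.17). It had a median of 7.55 reads for each Ctsz read over 31 cells, from 0.0335 in C74 to 72.5 in C39, against 4.59 in the bulk library (3.53 to 6.03). Above the bulk ratio lay 18 of the 26 cells for Ctsb and 21 of the 31 for Ctsz. These medians leave out cells without a read of the second gene, while a bulk ratio pools its cells, so both measures are unlike. Summed over all cells, Ctsl had 110825 reads, Ctsb 6767 and Ctsz 11559. The highest Ctsl to Ctsb ratio rested on 11 Ctsb reads in C03, and without that cell the highest was 106.5, in C33. In C13 Ctsl and Ctsb had 1018 and 742 reads, and in C33 they had 15549 and 146.

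Ctsl made up a median of 80.7% of the reads of the 8 genes in a cell, against 67.4% in the bulk library (interval 63.0% to 71.6%). It made up over 50% in 28 of 34 cells, and was 95.3% in C33 and 94.2% in C26. It was 100% in C88, C94 and C95, where it rested on 31, 6 and 10 reads. In C74 its share was 3.24% (exact binomial interval 1.20% to 6.93%), with 179 Ctsz reads against 6 Ctsl reads. C03 had another mixture, with 3001 reads of Ctsl, 2176 of Ctsc and 1761 of Ctsz and 11 of Ctsb. C14 had 37 Ctsl, 34 Ctsb and 40 Ctsd reads, and C39 had 145 Ctsl and 127 Ctsb reads.

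**Figure D3:**
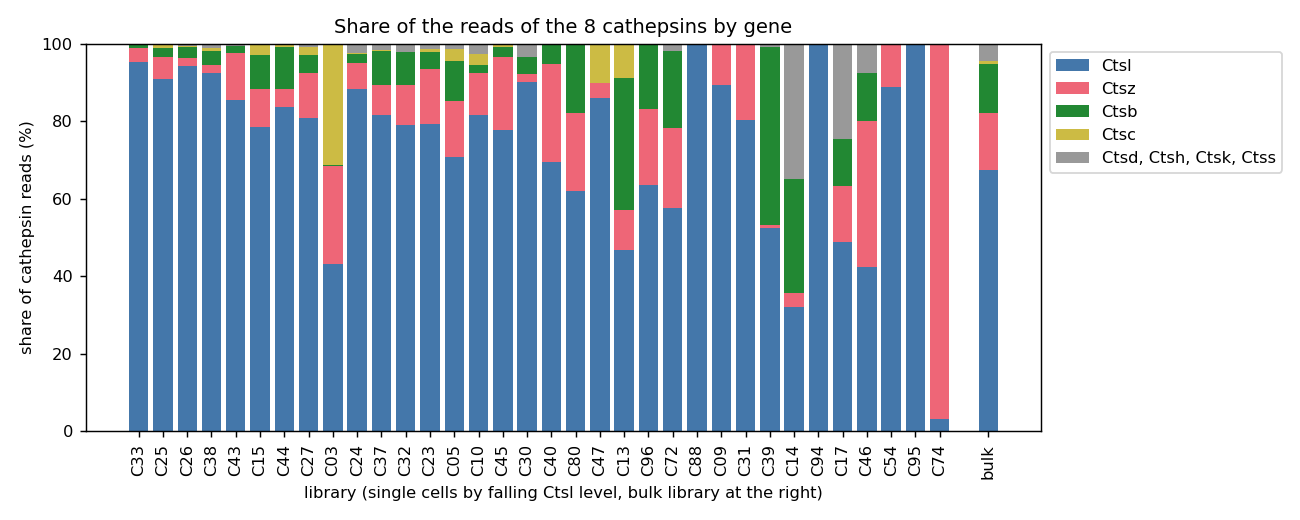
Share of the reads of the 8 cathepsins, in percent, that came from each gene in each single cell, ordered by falling Ctsl level, and in the bulk library at the right. Ctsl makes up 95.3% in C33 and 3.24% in C74, where Ctsz makes up nearly all of the rest, against 67.4% in the bulk library.

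Across cells, Ctsl and Ctsz tended to be high together, and so did Ctsl and Ctsb, as a description of cells that carry the same label and differ in depth and in genes per cell. Spearman's rho of CPM over 34 cells was 0.75 for Ctsl and Ctsz, 0.57 for Ctsl and Ctsb and 0.50 for Ctsb and Ctsz. Without C33 and C25, the cells farthest from the median of Ctsl, the first 2 values were 0.72 and 0.59. Over 2923 genes detected in at least 17 cells the median rho with Ctsl was 0.25, and 87.8% of these genes had a rho above 0, so a positive value is common in this set. Cells with more genes tended to hold more CPM of each of the 3, with a rho between genes per cell and CPM of 0.53 for Ctsl, 0.79 for Ctsb and 0.63 for Ctsz. Among the 20 cells with at least 100000 reads and 3000 genes, the rho fell to 0.34 for Ctsl and Ctsz and to 0.13 for Ctsl and Ctsb. There Pearson's r of log2(CPM + 1) was 0.85 and 0.76, and without C54 it was 0.32 and −0.05, so those 2 values rest on that cell. The rho without C54 was 0.24 for Ctsl and Ctsz and −0.02 for Ctsl and Ctsb.

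The gene with the lowest rho with Ctsl among the 2923 was Rn45s, the precursor of ribosomal RNA, at −0.64. Rn45s ranged from 4342 CPM in C33, the cell with the highest Ctsl, through a median of 12772 CPM to 146819 CPM in C45, and was 55495 CPM in the bulk library. Its part in the Ctsl values was not tested. With Rn45s left out of the library totals, the rho of Ctsl with Ctsz was 0.74 and the log2 ratio of Ctsl, cells over bulk, was 0.61.

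The 10 genes most like Ctsl by rho over 34 cells had values of 0.74 to 0.79. They were Colgalt1, a collagen galactosyltransferase gene (0.79), Golm2, a Golgi membrane protein gene (0.79), Pga5, which encodes a pepsinogen, a secreted aspartic protease precursor (0.77), and Tmed10, a cargo receptor gene of the early secretory pathway (0.77). Next came Pigk and Pigt, subunits of the enzyme that attaches GPI anchors, both at 0.76, and Ddost, a subunit of the oligosaccharyltransferase, at 0.76. The last 3 were Srgn, the serglycin proteoglycan gene of the parietal endoderm list (0.75), Ctsz (0.75) and Pxdn, the peroxidasin gene, whose product crosslinks collagen IV (0.74). Summed marker levels had a rho with Ctsl of 0.73 for the visceral endoderm list, 0.61 for the parietal endoderm list and 0.26 for the hypoblast list. Of the visceral list, Apoe, an apolipoprotein gene, had 0.72, and it held 10230 of the 12543 reads of that list over the cells. For the 6 hypoblast list genes detected in at least 17 cells the rho ranged from 0.18 to 0.55, the highest for Gata6. No value under the filters on cells is given for the sums. Many of the 10 genes also followed the number of genes per cell, with a rho of 0.75 for Pigt and 0.72 for Pigk, but 0.47 for Srgn and 0.44 for Pxdn.

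Srgn and Pga5 ranked highest once poorer cells were left out, at rank 1 and 2 in both smaller sets. In the 25 cells with at least 50000 reads and 2000 genes, Srgn had a rho of 0.78 with Ctsl and Pga5 0.77, while Ctsz came at rank 40. Among the 20 cells of the stricter set, Srgn had a rho of 0.86 and Pga5 0.80, and without C54 these were 0.84 and 0.77. Ctsz came at rank 214 in that set. Srgn was detected in 30 cells, with 0 CPM in the lowest, 1124 CPM in the median and 5112 CPM in the highest cell, C47, against 1061 CPM in the bulk library. Pga5 was detected in 23 cells, with a median of 204 CPM and 31274 CPM in C26, against 1273 CPM in the bulk library. C26 held 41502 CPM of Ctsl.

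**Figure D4:**
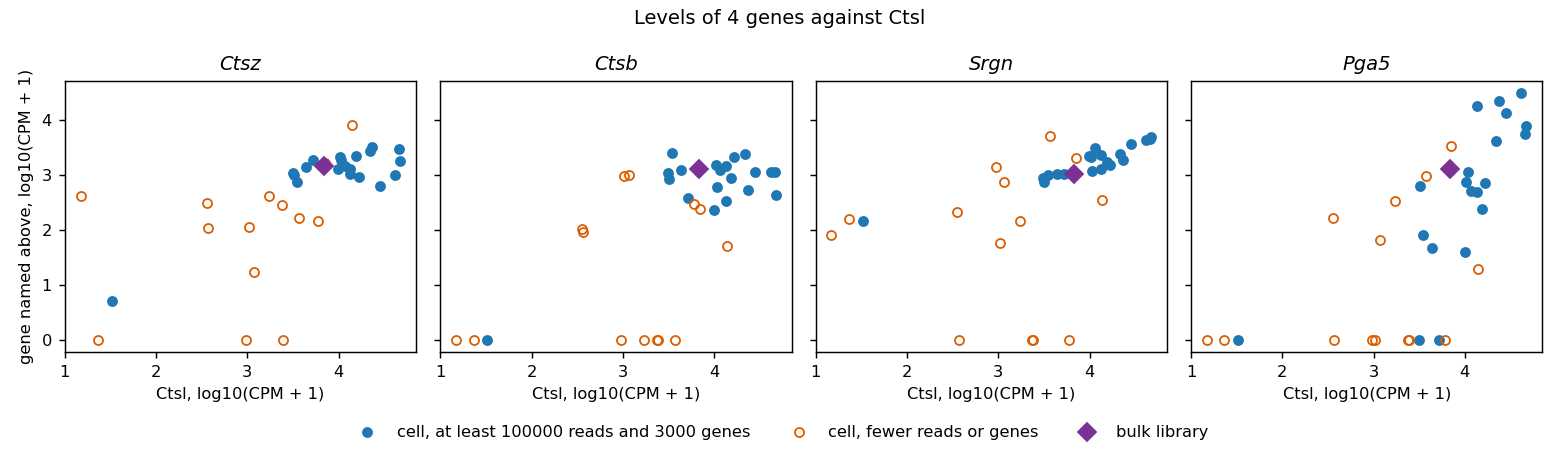
Level of Ctsz, Ctsb, Srgn and Pga5 against the level of Ctsl, both as log10(CPM + 1), with filled circles for the 20 cells with at least 100000 reads and 3000 genes, open circles for the other 14 cells and a diamond for the bulk library. The filled circles rise with Ctsl for Srgn (rho 0.86) and Pga5 (0.80) and less so for Ctsz (0.34) and Ctsb (0.13), and the lone filled circle at the left is C54.

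Inhibitors of cysteine cathepsins were represented by a pair of genes. Cstb, the gene of the cytosolic inhibitor stefin B, was detected in 30 cells at 449 ± 488 CPM, against 233 CPM in the bulk library (11 reads). Cst3, the gene of the secreted inhibitor cystatin C, was detected in 27 cells at 320 ± 560 CPM, against 424 CPM in the bulk library (20 reads). Of the 7 inhibitor genes listed, 2 thus reached 17 cells, where the share over all genes with a read was 27.1%. Detection failed in all cells for 4, namely Csta, Cst7, Kng1 and Kng2. Cst6, the gene of cystatin E/M, was detected in 3 cells with 53 reads. The rho with Ctsl was 0.10 for Cstb and 0.40 for Cst3.

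Genes for activation and sorting of cathepsins were detected in part. Lgmn, the gene of legumain, an asparaginyl endopeptidase that processes cathepsins to their 2-chain forms, was detected in 27 cells at 448 ± 636 CPM, against 424 CPM in the bulk library (20 reads). M6pr, which encodes the cation-dependent mannose 6-phosphate receptor, was detected in 25 cells at 243 ± 300 CPM, against 467 CPM in the bulk library. Igf2r, the gene of the other mannose 6-phosphate receptor, was detected in 11 cells at 32.4 CPM, of which C30 held 49.9%, against 84.9 CPM (4 reads) in the bulk library. The adaptor gene Gga2 was detected in 23 cells and Psap, the gene of prosaposin, in 25. Sort1, the sortilin gene, had no read in any library. In all, 4 of 9 measured genes of this list reached 17 cells, where the share over all genes with a read was 27.1%. The rho of these 4 genes with Ctsl ranged from 0.25 to 0.58.

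Other lysosomal genes were detected in 6 of 13 cases in at least 17 cells, where the share over all genes with a read was 27.1%. Cd63 and Lamp1, which encode lysosomal membrane proteins, were each detected in 28 cells, at 453 ± 407 and 266 ± 254 CPM, against 722 and 340 CPM in the bulk library. Hexa, a hexosaminidase subunit gene, was detected in 25 cells at 179 ± 337 CPM, and Tpp1, a tripeptidyl peptidase gene, in 20 cells at 143 ± 241 CPM, against 297 and 84.9 CPM in the bulk library. The rho of the 6 genes with Ctsl ranged from 0.27 to 0.51. Of 12 genes of this list compared with bulk, 3 were at least 2-fold higher in the cells and 4 at least 2-fold higher in the bulk library, beside the shares of 34.8% and 30.6% over all genes. The regulators of lysosomal genes were detected in few cells, Tfeb in 8, Mitf in 4, and Tfe3 and Tfec in 2 each, and none had a bulk read.

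Among other cathepsins, Ctsa, which encodes the carboxypeptidase that protects a lysosomal sialidase and galactosidase, was detected in 24 cells at 361 ± 428 CPM, against 594 CPM in the bulk library (28 reads). Its rho with Ctsl over 34 cells was 0.71. Ctsf was detected in 1 cell, and Ctse, Ctsg and Ctsw had no read. Rodents carry a cluster of relatives of Ctsl known from the placenta, with which reads could be shared. Of 7 relatives measured, Cts7, Ctsj, Ctsq, Ctsql2 and Ctsr had no read in any library, while Cts8 had 1 read and Ctsm 2 reads over all cells. The handling of reads that fit several genes is not given in the sources used here.

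**Figure D5:**
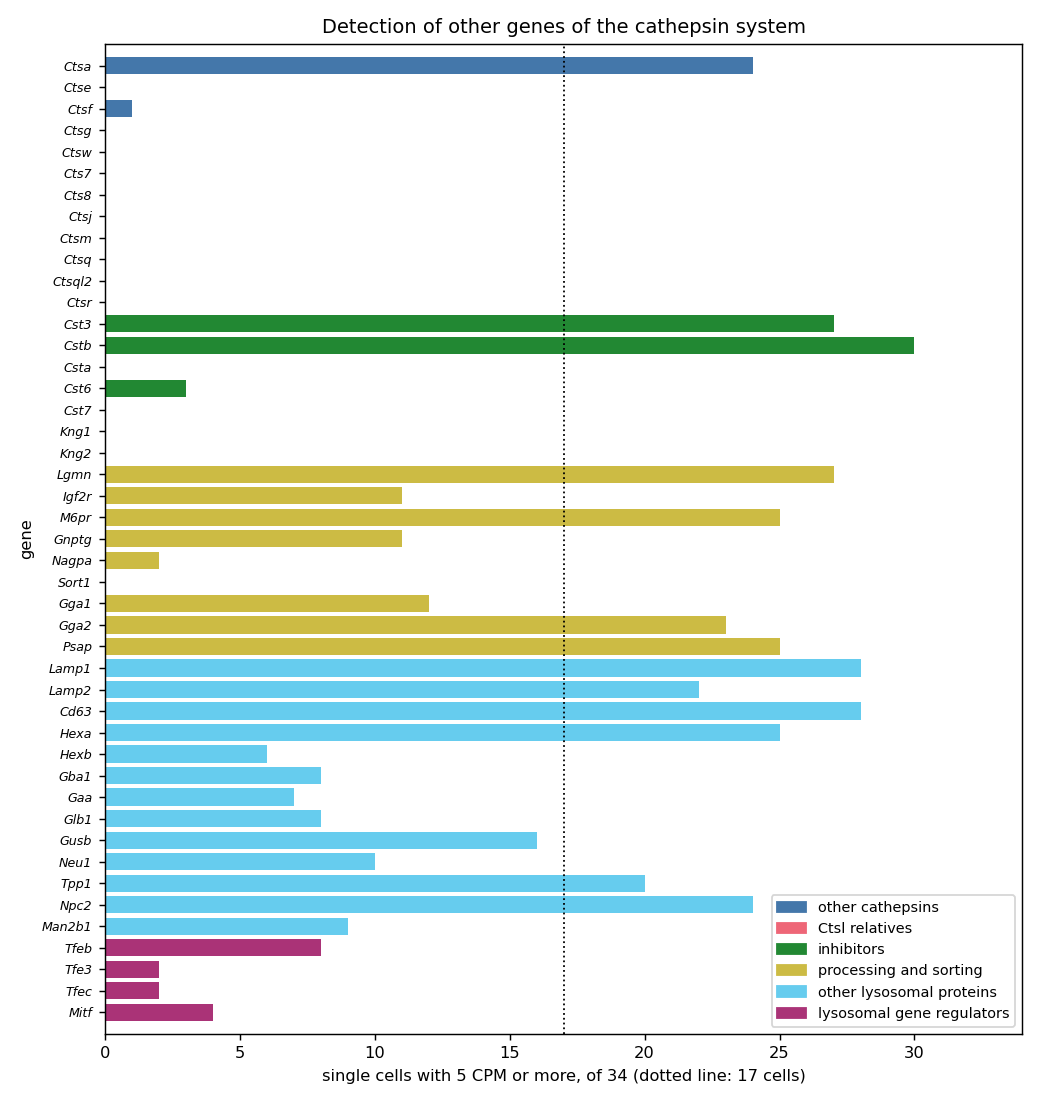
Number of the 34 single cells in which each other gene of the cathepsin system was detected at 5 CPM or more, by gene list (colours), with a dotted line at 17 cells. Cstb reaches 30 cells and Lgmn 27, while no measured relative of Ctsl reaches 5 CPM in any cell.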

How the data were processed

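Whole-number read counts per RefSeq transcript record were deposited by the authors as a single table covering every library. TopHat2 and the build rn5 appear in the submitters' processing notes. The counter, the annotation and how reads with several matches were handled: not given in the sources used here. The labels mention no molecular identifiers. Of all nonzero values, 59.8% to 72.6% in a cell and 79.9% in bulk were even, so intervals and floors, which treat reads as independent, are too narrow.

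Of 17201 records, 16215 were matched to symbols of the RefSeq gene table of GRCr8, used for names and upstream sequences only. The other 986 held 4.11% of the reads and stayed in the totals. Counts were summed per symbol and scaled to CPM of library totals, with Python 3.11.15, pandas 2.3.3 and scipy 1.17.1. Detection means 5 CPM or more. Cells and bulk were compared as log2 ratios with a pseudocount of 1 CPM. A count of 0 allows up to 3 reads. None of the 561 pairs of cells held identical counts. No doublet caller was run. Alternatives used edgeR 4.0.16 (TMM), DESeq2 1.42.0 (size factors), 2 filters on cells, thinning, and other pseudocounts and summaries. The ratio and rank computations were run on simulated Poisson counts with planted differences. That checks the arithmetic only, since the simulated counts lack the spread between real cells. Relations between members were set beside the rho of Ctsl with all genes detected in at least 17 cells, in place of the planned rho of all pairs of genes.

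The members and gene lists were chosen with earlier results of these data known. Named are all members, the 10 genes with the highest Spearman's rho with Ctsl, and, from each list of system genes or markers, at most 4 by mean level in cells plus any that a count of 5 or fewer points to. Other genes were named after their values were seen. Ctso, Cts3, Cts6, Cts8l1, Ctsll3, Ctsl3, Gnptab, Gga3, Lamb1, Col4a2, Dcstamp, Ocstamp and Krt7 were listed but not analysed here. Transcript lengths were not used here.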

Additional observations from a re-analysis of the deposited data

How the results depend on the processing

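At 1 read and at 50 CPM 3 members were again detected in at least 17 cells, and 4 members were in at least 50% of the thinned cells. The mean level of Ctsl, 10887 CPM, was 16459 CPM in the stricter set and 5581 CPM for the median cell. Since the SD over cells exceeded the mean for every member, comparing shifts of the means with it says nothing about stability. Means under DESeq2 size factors are on another scale. The log2 ratio of Ctsl, 0.68, was 1.01 with TMM totals, 1.54 with DESeq2 size factors, 1.01 for summed reads, 1.27 in the 20 cells of the stricter filter, 1.01 in the 25 cells of the milder filter and −0.29 with the median cell. The median over all genes moved to 0.21 with TMM totals and 0.65 with size factors, and Ctsz turned from −0.24 to 0.22 and 0.87. Relative to that median, Ctsl was 0.67 to 1.17 in every setting but the median cell. The number of members at least 2-fold higher in the cells was 2 in place of 1 with TMM totals, size factors, summed reads, either filter on cells and no filter on level (where Ctsk, with no bulk read, was added). It was 0 with the median cell or when each gene was averaged without its own highest cell. Over all compared genes the share was 37.5% with TMM totals, 40.2% with size factors and 35.7% for summed reads. It was 36.7% and 36.6% under the stricter and milder filter, 8.30% with the median cell and 24.5% without the highest cell of each gene. The share with no filter on level is not given here. The number at least 2-fold higher in bulk was 4 with the median cell and 2 without the highest cell of each gene. The shares over all compared genes were 73.9% and 42.4% there. Ctsc turned to −6.42 with the median cell, which held no read. Of the 10 genes most like Ctsl, 3 were shared with Pearson's r, 3 with the stricter and 5 with the milder filter. The rho of Ctsl with Ctsz and Ctsb fell to 0.34 and 0.13 under the stricter filter, and there to 0.24 and −0.02 without C54. The cause was not tested. The milder filter, the alternative without the cells with Col1a2, that without the highest cell of each gene for cells against bulk, and totals without Rn45s for the relations were chosen after seeing the data. The planned order of cathepsins per length, and its alternative, were not run, since transcript lengths were not used here. No paired analysis was possible because 1 group holds a single library.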
